A study of Mus musculus with 32 samples.

Results

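The comparison of GFAP-IL6 with WT frontal cortex at 0.5 ng of total RNA, the lowest input tested, rested on 8 libraries of the 32 in the series, 4 of each genotype, chosen by the genotype and input amount in their labels. All animals were 3 months old. The paper names the strain, C57BL/6, for the WT mice only. WT mice carried no transgene, and GFAP-IL6 mice were homozygous for an interleukin 6 transgene driven by the promoter of Gfap, so that astrocytes made the cytokine. Libraries were prepared by 3'Pool-seq, in which an indexed oligo-dT primer marks each sample during reverse transcription and the 3' end of each transcript is sequenced after pooling. The comparison asked which genotype differences, in single genes or in summed gene groups, were still seen at this input. The 8 libraries made from 50 ng served as the reference for it.

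Interleukin 6 signals through its receptor and the shared subunit gp130 to the JAK kinases and the transcription factor STAT3, which turns on acute phase genes. In the brain a lasting supply of the cytokine is known to activate astrocytes, which then make more of the filament protein GFAP, and microglia, the resident macrophages, which then make more complement, Fc receptor chains and lysosomal proteases. The gene groups below were therefore ordered from the cytokine and its signalling to astrocytes, microglia and the other cells of the cortex.

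The promoters of 4 genes that were higher in GFAP-IL6 at both inputs are shown. They had the smallest p-values among the DEGs at 50 ng that had no overlap between genotypes at 0.5 ng and a promoter in the RefSeq table (build GRCm38.p6). Each sequence runs from 250 bases before to 50 bases after the start site, 5' to 3' on the strand of the gene. Capitals mark matches on either strand to 3 motifs: TTCNNNGAA, the palindrome bound by STAT proteins, GAGGAA, the core bound by the myeloid factor PU.1 and its relatives, and GAAA repeated after any 2 bases, the element bound by interferon regulatory factors. The windows were chr3:95526536-95526835 (plus strand) for Ctss, chr11:49663345-49663644 (plus) for Scgb3a1, chr1:171234300-171234599 (minus) for Fcer1g and chr11:82101595-82101894 (plus) for Ccl12.
Ctss: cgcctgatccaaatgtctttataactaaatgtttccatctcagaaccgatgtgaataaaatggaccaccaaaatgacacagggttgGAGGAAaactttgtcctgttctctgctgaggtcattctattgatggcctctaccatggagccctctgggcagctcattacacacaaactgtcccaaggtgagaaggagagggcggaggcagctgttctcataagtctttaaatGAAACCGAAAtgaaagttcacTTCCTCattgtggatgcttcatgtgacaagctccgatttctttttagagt
Scgb3a1: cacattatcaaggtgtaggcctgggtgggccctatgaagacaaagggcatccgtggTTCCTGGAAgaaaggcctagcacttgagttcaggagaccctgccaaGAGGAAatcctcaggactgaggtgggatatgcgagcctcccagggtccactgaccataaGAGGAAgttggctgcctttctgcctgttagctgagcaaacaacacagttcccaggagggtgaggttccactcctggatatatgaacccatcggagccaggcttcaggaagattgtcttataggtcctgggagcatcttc
Fcer1g: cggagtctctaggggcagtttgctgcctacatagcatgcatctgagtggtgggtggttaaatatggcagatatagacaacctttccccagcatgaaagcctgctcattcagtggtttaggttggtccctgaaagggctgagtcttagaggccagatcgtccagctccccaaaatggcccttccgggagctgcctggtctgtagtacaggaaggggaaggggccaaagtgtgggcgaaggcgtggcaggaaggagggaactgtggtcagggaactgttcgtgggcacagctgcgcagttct
Ccl12: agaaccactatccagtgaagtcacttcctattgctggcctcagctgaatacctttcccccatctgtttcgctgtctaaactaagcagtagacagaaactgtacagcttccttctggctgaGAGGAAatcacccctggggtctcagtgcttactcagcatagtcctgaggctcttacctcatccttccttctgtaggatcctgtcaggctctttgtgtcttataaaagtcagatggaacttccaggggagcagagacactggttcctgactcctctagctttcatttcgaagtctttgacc

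The Ctss window held GAGGAA at 164 bases before the start site and again, on the other strand, from the first transcribed base, and the GAAA repeat at 21 bases before it. The Scgb3a1 window held TTCNNNGAA at 194 bases and GAGGAA at 148 and 89 bases before the start site, and the Ccl12 window held GAGGAA at 130 bases. The Fcer1g window held none of the 3. Of 27025 mouse promoters of this length, 8.47% held TTCNNNGAA, 28.3% held GAGGAA and 3.49% held the GAAA repeat, so that the matches describe the windows and are not sites shown to be used.

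Total counts at 0.5 ng ran from 295022 to 2722389 per library with a median of 1428120. The replicate 2 libraries were the shallowest of both genotypes, with 461385 counts in WT and 295022 in GFAP-IL6. The smallest level a library could show, set at 3 counts of its total, was 1.10 to 10.2 CPM, counts scaled to a common library total. This covers counting error only, because reads carried no molecular identifiers. Mitochondrial transcripts took 11.0 to 18.5% of counts. All 16 marker genes of glutamatergic neurons passed the filter on low counts, as they should in cortex. Every pair of libraries of a group differed by more than counting noise. The labels do not say that libraries of a group came from separate animals, so that p-values measure only the spread between these samples.

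Fewer genes could be compared at 0.5 ng than at 50 ng. The libraries at 0.5 ng were also shallower, with a median of 1428120 against 3603629 counts, and the parts of input and depth in the following values were not tested. Among genes with a mean of 10 to 30 CPM at 50 ng, 15.05% of gene and library pairs at 0.5 ng held 0 counts, and the median within-group SD of log2(CPM + 1) was 1.74 against 0.347 at 50 ng. For genes of 100 to 300 CPM zeros fell to 0.0279% and the SD was 0.513 against 0.257. For genes at or above 300 CPM no zero occurred and the SD was 0.274 against 0.238, so that the spread between replicates at 0.5 ng approached that at 50 ng only for the most abundant genes. The biological coefficient of variation, the spread between replicates that edgeR estimates beyond counting error, was 0.767 at 0.5 ng and 0.214 at 50 ng. In all, 8571 genes passed the filter on low counts at 0.5 ng and 11773 at 50 ng.

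**Figure D1:**
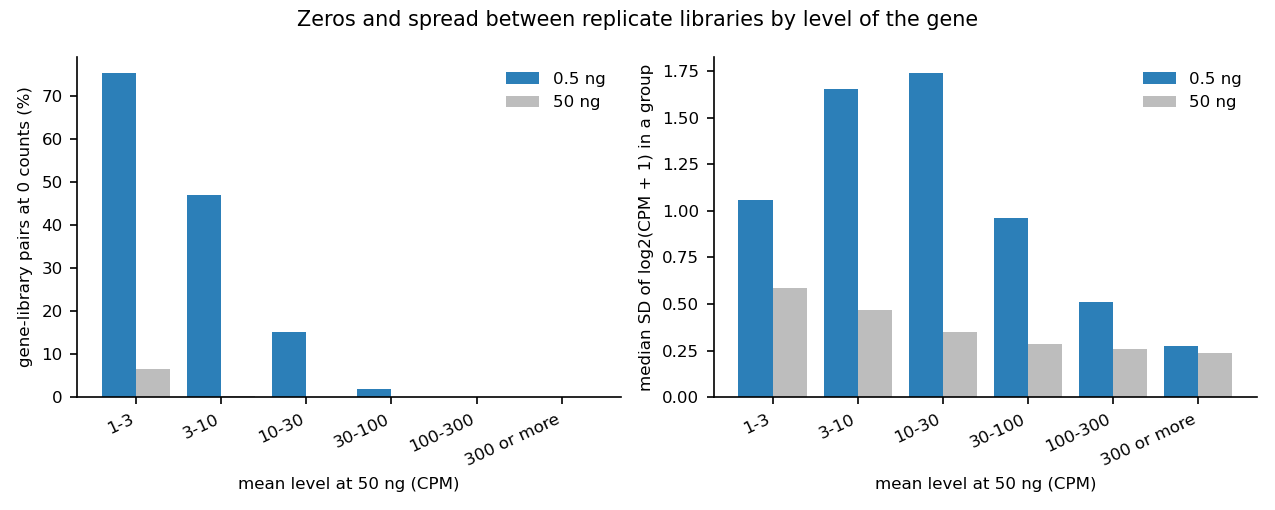
Bars give, by the mean level of the gene at 50 ng (CPM, x axis), the percentage of gene and library pairs at 0 counts (left) and the median within-group SD of log2(CPM + 1) (right) at 0.5 ng and 50 ng, 8 libraries each. Zeros reached 75.2% for genes of 1 to 3 CPM, and the SD peaked at 1.74 for genes of 10 to 30 CPM.

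One gene was called between the genotypes at 0.5 ng. Ctss (cathepsin S, ENSMUSG00000038642.8, chr3:95526786-95556403), a lysosomal cysteine protease of microglia and other antigen-presenting cells, rose 3.97-fold in GFAP-IL6 cortex. Its level was 581, 993, 900 and 559 CPM in the 4 GFAP-IL6 libraries (906, 293, 1722 and 1523 counts) and 185, 171, 256 and 136 CPM in the 4 WT libraries (223, 79, 332 and 358 counts). The lowest GFAP-IL6 library lay above the highest WT library by more than a factor of 2. The log2 fold change was 1.99 ± 0.243 (SE, n = 4 per genotype, 95% interval 1.48 to 2.496), with an adjusted p of 0.00115 by edgeR's quasi-likelihood test with Benjamini-Hochberg adjustment. Ctss overlaps the pseudogene Hmgb1-ps5, so that its count may include reads of both. At 50 ng Ctss had a log2 fold change of 1.495 ± 0.225. In bulk tissue more cells of a type and more RNA per cell cannot be told apart.

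DEGs were genes that changed more than 2-fold with an adjusted p under 0.05, and Ctss alone made 0.0117% of the 8571 genes tested. The next smallest adjusted p was 0.308. The count was 21 with DESeq2, 4 without the filter and 616 in a single fit of all 32 libraries, in which all inputs share one dispersion for each gene. It was 0 when every library was thinned to 295022 counts (Ctss log2 fold change 2.35, edgeR adjusted p = 0.154) and 0 without both replicate 2 libraries (Ctss 1.82, edgeR adjusted p = 0.116).

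Before adjustment, 246 genes had p under 0.05 by edgeR (2.87% of those tested), 128 of them higher in GFAP-IL6 (1.49%) and 118 lower (1.38%). The 4 GFAP-IL6 libraries lay above all WT libraries in 126 genes (1.47%) and below them in 115 (1.34%). Some of these genes had to differ, because they passed the filter through the group in which they were high alone. This held for 21 of the 126 and 15 of the 115. The median log2 fold change over all genes tested was -0.01, and 49.2% of them had a positive value, against which the counts of positive values below can be read. Counts of p under 0.05 and of groups without overlap below can be read against the shares given above. An absolute log2 fold change above 1 was reached by 1571 genes (18.3%) at 0.5 ng and by 194 (1.65%) at 50 ng. At 0.5 ng the size of a fold change alone therefore did not separate genes from the spread between replicates.

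**Figure D2:**
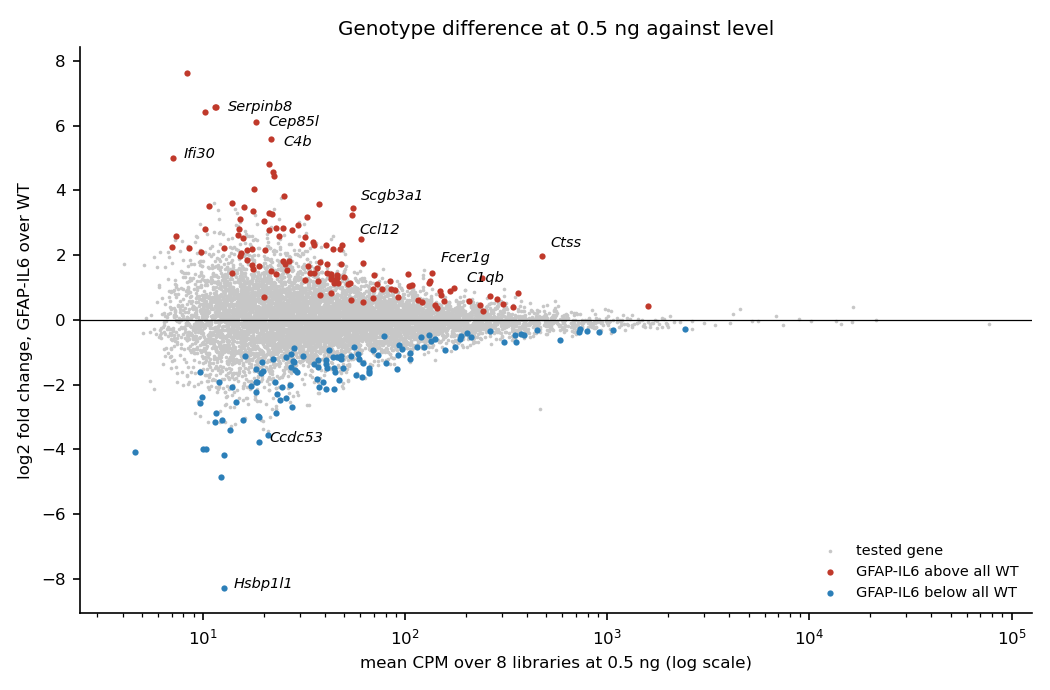
Each point is 1 of 8571 genes tested at 0.5 ng, with its mean CPM over 8 libraries (x axis, log scale) and its log2 fold change, GFAP-IL6 over WT (y axis). Red and blue points are the 126 genes whose GFAP-IL6 libraries lay above, and the 115 whose GFAP-IL6 libraries lay below, all WT libraries and Ctss, the gene called, is at 1.99. Values of genes with a group at or near 0 counts, Hsbp1l1 among them, depend on the prior count of the fit.

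Il6 itself, the gene the transgene carries, had 0 counts in each of the 8 libraries at 0.5 ng, which allows up to 1.10 to 10.2 CPM per library. At 50 ng it was at 4.92, 8.40, 5.07 and 0.717 CPM in the GFAP-IL6 libraries and at 0 to 0.277 CPM in the WT libraries. Whether the transcript of the transgene keeps the 3' end of Il6 is not given in the sources used here. At 50 ng each GFAP-IL6 library was above every WT library, but replicate 4 only just exceeded its floor of 0.538 CPM. The counts at 0.5 ng cannot check the genotype labels. Of the 20 genes of the IL6 receptor and JAK-STAT group 9 were tested, 6 had a positive log2 fold change, and Stat3 alone had p under 0.05. Stat3, named here after its values were seen, was at 51.9, 186, 59.6 and 80.1 CPM in GFAP-IL6 and at 16.6, 60.7, 24.7 and 13.7 CPM in WT. The groups overlapped, since the lowest GFAP-IL6 library was below the WT replicate 2 library (log2 fold change 1.69 ± 0.648, 95% interval 0.33 to 3.05). Osmr, the oncostatin M receptor, had 13 counts in GFAP-IL6, all in replicate 3, and 0 in WT. Socs3, the feedback inhibitor of the pathway, had 14 counts in GFAP-IL6, all in replicates 1 and 4, and 0 in WT. Neither gene passed the filter.

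Gfap (chr11:102887336-102900912), the defining gene of reactive astrocytes and the source of the promoter of the transgene, did not pass the test. It was at 9.61, 61.0, 57.5 and 62.4 CPM in the GFAP-IL6 libraries and at 30.8, 2.17, 18.5 and 9.12 CPM in the WT libraries. Thus 3 of the 4 GFAP-IL6 libraries were above every WT library, and replicate 1, with 15 counts, was below 2 of them. The log2 fold change was 1.59 ± 0.919 with a 95% interval of -0.34 to 3.52, which includes the 2.20 ± 0.267 measured at 50 ng.

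Of the 20 genes of the reactive astrocyte group 7 passed the filter, and 4 had 0 counts in all 8 libraries. All 7 had a positive log2 fold change, with a median of 0.56 against -0.01 over all genes tested, but none had p under 0.05. Lrg1, an acute phase glycoprotein that was a DEG at 50 ng, was at 27.6, 64.4, 9.93 and 49.96 CPM in GFAP-IL6 and at 0, 0, 41.7 and 20.1 CPM in WT. The overlap left its log2 fold change of 1.26 ± 1.20 within the spread. Among the 18 homeostatic astrocyte genes, all tested, 12 had a positive log2 fold change, and Slc1a3 alone had p under 0.05. Slc1a3, the glutamate transporter GLAST, named after its values were seen, was at 404, 593, 351 and 282 CPM in GFAP-IL6 and at 215, 167, 313 and 131 CPM in WT (log2 fold change 0.95 ± 0.288, 95% interval 0.35 to 1.56). The median of the group was 0.11.

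Of the genes of microglia and activated myeloid cells, Fcer1g (chr1:171229572-171234365), the signalling chain shared by Fc receptors, was at 197, 244, 170 and 191 CPM in GFAP-IL6 and at 59.9, 75.9, 59.4 and 88.2 CPM in WT. Every GFAP-IL6 library was above every WT library, in a narrow range on both sides. The log2 fold change was 1.46 ± 0.344 (95% interval 0.74 to 2.18), with an adjusted p of 0.662 by edgeR's quasi-likelihood test with Benjamini-Hochberg adjustment. It was called only by DESeq2 and by the fit of all 32 libraries among the alternatives.

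Trem2, a lipid-sensing receptor of microglia, was at 51.9, 50.8, 61.1 and 56.6 CPM in GFAP-IL6 and at 41.6, 8.67, 20.8 and 0.760 CPM in WT. The GFAP-IL6 libraries were close together and above all WT libraries, but the WT libraries spread so widely that the difference did not pass (log2 fold change 1.597 ± 0.899, 95% interval -0.29 to 3.48). Lyz2, lysozyme of macrophages, was at 48.1, 122, 11.0 and 30.1 CPM against 3.33, 17.3, 5.40 and 1.14 CPM. Its groups overlapped through GFAP-IL6 replicate 3 and WT replicate 2 (log2 fold change 3.01 ± 1.09, 95% interval 0.74 to 5.29). Fcgr3, an activating Fc gamma receptor named after its values were seen, was at 68.6, 6.78, 84.6 and 30.9 CPM against 8.32, 4.33, 15.4 and 17.5 CPM, with 2 counts in each replicate 2 library. Its log2 fold change was 2.02 ± 0.919 (95% interval 0.09 to 3.94).

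Of the 22 genes of the myeloid activation group 13 were tested. Of these, 12 had a positive log2 fold change with a median of 0.91, and 3 had p under 0.05, all higher (Fcer1g, Fcgr3 and Lyz2). Among all genes tested 1.49% had p under 0.05 with a higher level. Tyrobp, the partner of TREM2, had a log2 fold change of 0.47 ± 0.347, with an interval of -0.26 to 1.20. Of the 15 homeostatic microglia genes 11 were tested, 9 with a positive log2 fold change and a median of 0.48. Aif1, which encodes the microglial marker IBA1, had 1.15 ± 0.655, and Itgam, the integrin CD11b, was at 34.6, 30.5, 9.93 and 31.2 CPM against 2.49, 8.67, 10.03 and 7.60 CPM. A single library, GFAP-IL6 replicate 3, kept the groups of Itgam from separating.

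The complement group held both well-counted and low-count genes. The 3 chains of C1q, which starts the classical pathway and is made by microglia, are encoded side by side on chr4. C1qb was at 193, 210, 324 and 198 CPM in GFAP-IL6 and at 126, 143, 127 and 68.0 CPM in WT. C1qc was at 216, 268, 214 and 174 CPM against 140, 147, 85.7 and 86.7 CPM, and C1qa at 7.05, 10.2, 11.5 and 18.7 CPM against 2.49, 0, 3.09 and 3.42 CPM. In C1qb and C1qc every GFAP-IL6 library was above every WT library. C1qa passed the filter through the GFAP-IL6 libraries alone and so had to separate. The log2 fold changes were 0.98 ± 0.322 for C1qb (95% interval 0.30 to 1.65) and 0.89 ± 0.322 for C1qc (0.22 to 1.56), and 2.24 ± 1.30 for C1qa, whose interval of -0.49 to 4.98 includes 0.

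C4b (chr17:34728380-34743882), a later component of the same cascade that astrocytes also make, was at 51.9, 81.3, 18.3 and 18.4 CPM in GFAP-IL6 and at 0, 0, 3.09 and 0 CPM in WT. The WT value came from 4 counts in 1 library, so that C4b entered the test through the GFAP-IL6 libraries alone, and its log2 fold change of 5.58 ± 1.45 had a 95% interval of 2.54 to 8.62. At 50 ng, where WT was at 6.6 CPM, it was 2.66 ± 0.283. C4b has a close copy in the mouse genome, with which reads could be shared, so that its level is uncertain. Of the 15 complement genes 6 were tested. A p under 0.05 with a higher level was found in 3 (C1qb, C1qc and C4b), against 1.49% of all genes tested. Higher levels without overlap were found in 4, against 1.47% of all genes tested, and of these C4b and C1qa had to separate. C3, the central component, had 0 counts in all 8 libraries.

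Scgb3a1 (chr11:49663610-49665118), a small secreted protein of the secretoglobin family, and Ccl12, a monocyte chemokine, had log2 fold changes above 3 with counts in most WT libraries. Scgb3a1 was at 149, 67.8, 93.5 and 92.9 CPM in GFAP-IL6 and at 11.6, 4.33, 16.98 and 3.42 CPM in WT. Ccl12 (chr11:82101845-82103400) was at 149, 27.1, 122 and 95.5 CPM against 15.8, 0, 18.5 and 6.08 CPM. The groups of Scgb3a1 were far apart, at 67.8 CPM or more against 16.98 CPM or less. Those of Ccl12 were separated by 27.1 against 18.5 CPM only, and the 27.1 CPM rested on 8 counts. The shallow replicate 2 libraries held 20 and 2 counts of Scgb3a1 and 8 and 0 of Ccl12. The log2 fold change was 3.46 ± 0.682 for Scgb3a1 and 3.23 ± 0.794 for Ccl12, with adjusted p of 0.308 and 0.689 by edgeR's quasi-likelihood test with Benjamini-Hochberg adjustment. At 50 ng the same genes gave 3.52 ± 0.252 and 3.29 ± 0.285. Both were called without the filter on low counts, with DESeq2 and in the fit of all 32 libraries. The fit without the filter also called Ttr, whose difference rested on WT replicate 3. DESeq2 and the fit of all 32 libraries also called genes that were not called at 50 ng, given below. Ccl12 lies among related chemokine genes, which makes its count uncertain. It was the only gene with p under 0.05 among the 8 tested of 26 chemokine and receptor genes, 11 of which had 0 counts throughout.

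**Figure D3:**
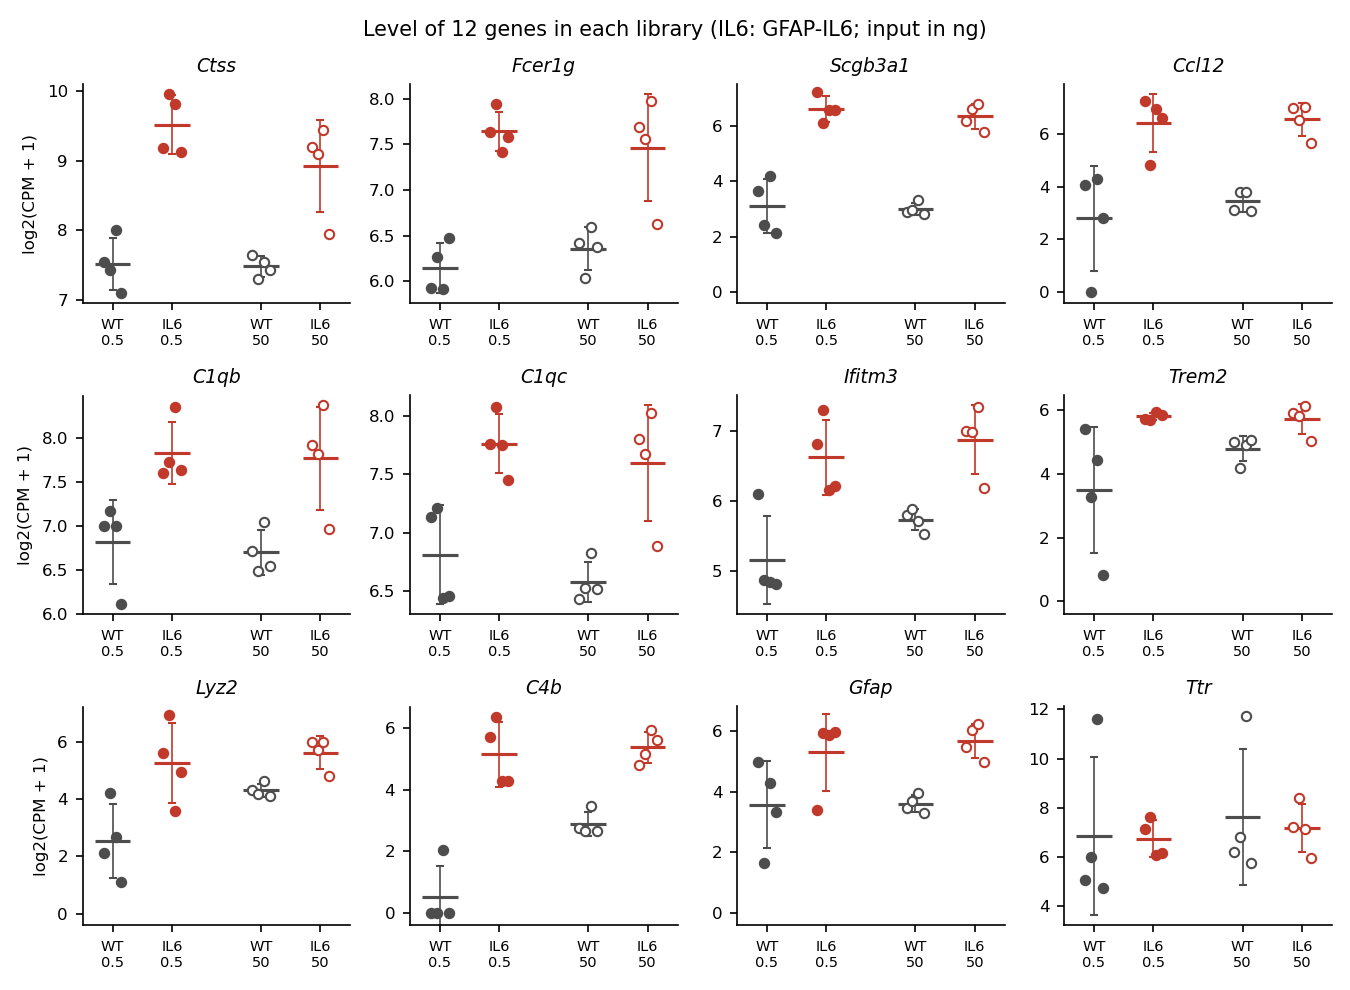
Points give log2(CPM + 1) of 12 genes in each library of WT (grey) and GFAP-IL6 (red) at 0.5 ng (filled) and 50 ng (open), with the mean and SD of each group of 4. Ctss at 0.5 ng separated the genotypes, C4b had a count in 1 WT library only, Gfap overlapped through GFAP-IL6 replicate 1, and Ttr was high in WT replicate 3 at both inputs.

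Of the 20 cathepsin and lysosome genes 19 were tested, 12 with a positive log2 fold change and a median of 0.21. Beside Ctss, Ctsd alone had p under 0.05. Ctsd, the aspartic protease cathepsin D, named after its values were seen, was at 434, 427, 574 and 310 CPM in GFAP-IL6 and at 296, 165, 347 and 242 CPM in WT, with a log2 fold change of 0.70 ± 0.255 (95% interval 0.17 to 1.24). Its groups overlapped through GFAP-IL6 replicate 4. Ctsh, a cathepsin called at 50 ng, was at 8.33, 16.9, 21.4 and 16.9 CPM against 29.9, 0, 0.772 and 36.9 CPM, so that the WT libraries lay on both sides of the GFAP-IL6 libraries.

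Among genes of antigen presentation 10 of 20 were tested and 2 had p under 0.05 with a higher level, against 1.49% of all genes tested. Psmb8, a subunit of the immunoproteasome, was at 22.4, 23.7, 24.6 and 40.0 CPM in GFAP-IL6 and at 5.82, 0, 0 and 5.32 CPM in WT. It passed the filter through the GFAP-IL6 libraries alone and so could not overlap (log2 fold change 3.12 ± 1.31, 95% interval 0.36 to 5.87). H2-Aa, a class II chain named after its values were seen, was at 35.2, 98.3, 4.18 and 20.9 CPM against 0, 0, 2.32 and 10.6 CPM, with overlap (3.33 ± 1.36, 95% interval 0.47 to 6.18). The group did not move as 1 block. B2m, the light chain of class I, had 0.44 ± 0.217, Psmb10 had -0.85 ± 0.433, and the median of the group was 0.04.

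Of 25 interferon-stimulated genes 5 passed the filter. Ifitm3, a membrane protein that restricts viral entry, was at 111, 156, 70.5 and 73.1 CPM in GFAP-IL6 and at 67.4, 28.2, 27.8 and 27.0 CPM in WT. Its groups were separated by 70.5 against 67.4 CPM only, because WT replicate 1 stood apart from the other WT libraries (log2 fold change 1.40 ± 0.540, 95% interval 0.26 to 2.53). Xaf1 did not overlap in the same direction (2.17 ± 1.29) and Bst2, the tether of budding virus, did not overlap in the opposite one (-1.62 ± 1.22), and neither had p under 0.05. Bst2 rested on 2 to 21 counts per library and passed the filter through the WT libraries alone, so that it had to separate.

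The 33 DEGs at 50 ng (0.28% of the 11773 genes tested there, all higher in GFAP-IL6) were taken as a list fixed by other libraries and read at 0.5 ng. The labels do not say whether libraries with the same replicate number at both inputs came from the same RNA. The choroid plexus score was 3123 CPM in WT replicate 3 at 0.5 ng and 3385 CPM in WT replicate 3 at 50 ng. It was at most 339 CPM in any other library of these inputs. The list may therefore not be independent of these samples, and agreement between inputs may be repeat measurement of the same samples. The deviations of same-numbered libraries from their group means correlated across inputs at 0.0377 to 0.0840 in WT and at 0.0245 to 0.132 in GFAP-IL6, and the own number ranked first in 4 of 4 WT and 2 of 4 GFAP-IL6 libraries. At 0.5 ng 20 of the 33 passed the filter and 13 did not. The 20 had a median level of 52.8 CPM in GFAP-IL6 at 50 ng and the 13 a median of 8.22 CPM. A log2 fold change above 0 was found in 19 of the 20, against 49.2% of all genes tested. A p under 0.05 with a higher level was found in 12 (1.49% of all genes), higher levels without overlap in 10 (1.47%) and an adjusted p under 0.05 in 1, Ctss. Of the 20, C4b and Ifi30 entered through the GFAP-IL6 libraries alone and so had to be higher. Without the GFAP-IL6 replicate 4 library at 50 ng, whose myeloid activation score of 479 CPM was below the 876 to 1105 CPM of its group, the count of DEGs at 50 ng was 59.

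The sizes were close on balance and far less certain. The median log2 fold change of the 20 genes was 1.58 at 0.5 ng and 1.63 at 50 ng, and the median width of the 95% interval was 4.20 against 1.11. The interval at 0.5 ng held the 50 ng value in 19 of the 20 genes. The exception was Ifi30, a lysosomal thiol reductase, at 13.5, 23.7, 10.4 and 8.08 CPM against 0, 0, 0.772 and 0.380 CPM. With 2 counts in all WT libraries the ratio of pooled counts was 30.1 with a counting interval of 8.04 to 254. Pycard, the adaptor of inflammasomes, was at 93.6, 61.0, 58.5 and 65.0 CPM in GFAP-IL6 and at 0.832, 0, 22.4 and 0 CPM in WT (log2 fold change 3.58 ± 1.15, 95% interval 1.16 to 5.99), and nearly all of its WT counts were in replicate 3. Without that library Pycard was called, with 7.63 and an edgeR adjusted p of 0.0483.

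The other tested DEGs of 50 ng ranged from Slc38a5, an amino acid transporter, at 3.13 ± 1.51, through Tmem176a at 1.57 ± 0.581, Unc93b1, which carries Toll-like receptors, at 1.02 ± 1.28, Ly86 at 0.91 ± 0.552 and Fcgr2b, the inhibitory Fc receptor, at 0.54 ± 1.30, to Ctsh at -0.20 ± 1.26. Tmem176a alone among these had p under 0.05. Tmem176a overlaps Tmem176b on the other strand, and the strand setting of the counting was not given, so that reads of the pair could be mixed. Among the 13 genes below the filter, Ptprc, the pan-leukocyte phosphatase CD45, had 106 counts in GFAP-IL6 and 9 in WT over the 4 libraries of each. Lgals3bp had 101 and 7, Wfdc17 95 and 23, and Ccl8 89 and 20. Ms4a6c had 45 and 0, and Rab32 43 and 0. Their pooled counts were 12.9-fold and 12.3-fold above a floor of 3 counts over the group, which leaves out the spread between libraries. Mpeg1, the perforin of macrophages, had 34 and 2 counts, a ratio of 14.6 with a counting interval of 3.75 to 126. Not all of the 13 pointed the same way, since Tmem252 had 23 counts in GFAP-IL6 and 33 in WT, and Fam187a had 19 and 18.

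**Figure D4:**
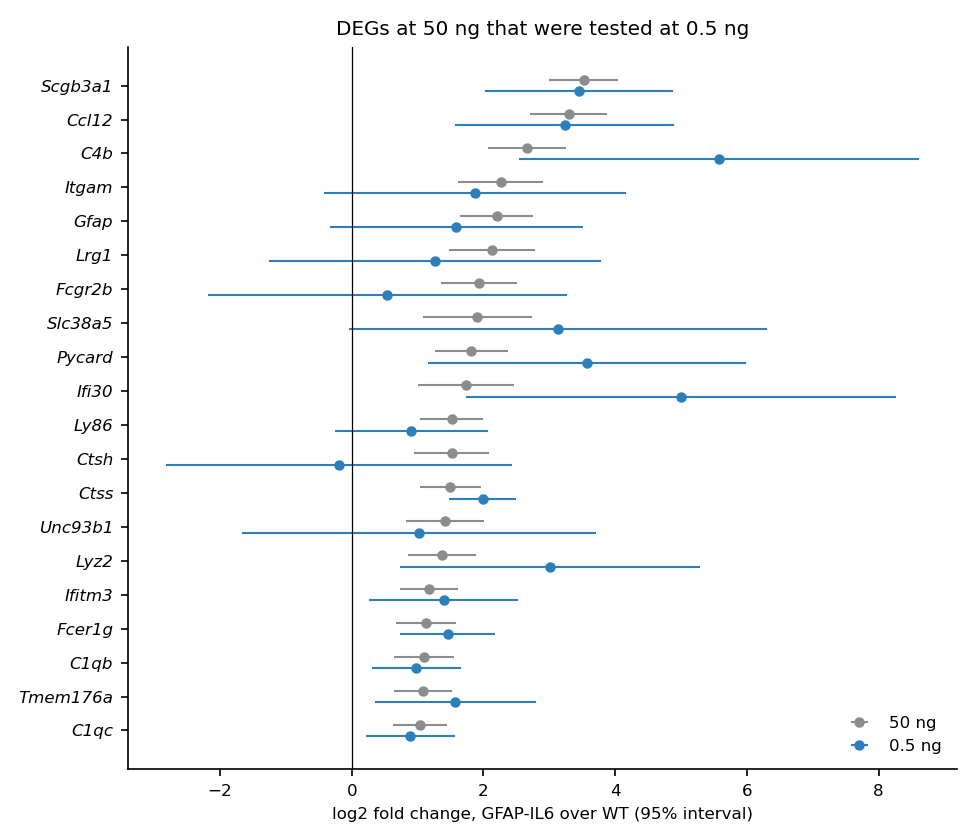
Log2 fold change, GFAP-IL6 over WT, with its 95% interval (x axis) for the 20 DEGs at 50 ng that were tested at 0.5 ng (y axis), at 50 ng (grey) and 0.5 ng (blue). The 0.5 ng intervals had a median width of 4.20 against 1.11, and 12 of them lay above 0.

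Several of the smallest p-values at 0.5 ng belonged to genes that were low or absent in all libraries of 1 genotype and were not called at 50 ng. Cep85l was at 15.4, 40.7, 24.6 and 63.9 CPM in GFAP-IL6, and its WT libraries held 3 counts, all in replicate 4 (ratio of pooled counts 73.8, counting interval 24.96 to 360). Serpinb8, a serine protease inhibitor, was at 27.6, 16.9, 25.1 and 22.0 CPM with 1 WT count (ratio 134, interval 23.8 to 5339). Chd1, a chromatin remodeller, was at 10.3, 10.2, 53.3 and 18.7 CPM with 1 WT count (ratio 148, interval 26.2 to 5883), and Brat1 was at 22.4, 20.3, 8.88 and 29.8 CPM with 1 WT count (ratio 120, interval 21.1 to 4761). In the opposite direction, Hsbp1l1 had 0 counts in GFAP-IL6 and 39.9, 32.5, 9.26 and 19.4 CPM in WT. Its pooled WT counts were 48.8-fold above a floor of 3 counts over the group, which leaves out the spread between libraries. Ccdc53, a subunit of the WASH complex, was at 2.56, 0, 3.13 and 3.31 CPM against 23.3, 26.0, 38.6 and 53.6 CPM in WT. All 6 entered the test through 1 genotype alone and so had to differ. DESeq2 and the fit of all 32 libraries called all 6, so that a call by these alternatives does not set a gene apart from them.

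At 50 ng the same 6 genes had log2 fold changes between -0.41 for Hsbp1l1 and 0.24 for Cep85l, with Chd1 at -0.01. The difference in genotype effect between the inputs was tested as an interaction over 11406 genes in the 16 libraries of both inputs. No gene passed an adjusted p of 0.05 (0.0% of those tested) by edgeR, with 758 at an unadjusted p under 0.05, while DESeq2 called 165, the fit of all 32 libraries 24 and voom with weights 0. The smallest adjusted p, 0.0759 by edgeR's quasi-likelihood test with Benjamini-Hochberg adjustment, was shared by Serpinb8 and Chd1. Leaving out 1 library at 0.5 ng gave 0 to 4 genes, with 4 without GFAP-IL6 replicate 2, 3 without WT replicate 2 and 2 without GFAP-IL6 replicate 4.

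Among better-counted genes named by the rule, none was shown to differ between the inputs. Gatm, which makes the precursor of creatine, was at 302, 539, 322 and 202 CPM in GFAP-IL6 and at 106, 121, 192 and 125 CPM in WT, with no overlap and a log2 fold change of 1.28 ± 0.308 (95% interval 0.64 to 1.93). At 50 ng it was 0.20 ± 0.170, and the interaction had an adjusted p of 0.396 by edgeR. Ergic2, a protein of the early secretory pathway, was at 48.1, 27.1, 41.3 and 71.6 CPM against 222, 117, 107 and 95.04 CPM in WT (-1.51 ± 0.469, and -0.10 ± 0.193 at 50 ng, edgeR adjusted p of the interaction 0.400). Ergic2 overlaps Far2 on the other strand.

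Mllt11 was at 522, 407, 488 and 426 CPM in GFAP-IL6 and at 766, 622, 834 and 605 CPM in WT, and Fez1, an axonal transport adaptor, at 235, 230, 313 and 313 CPM against 443, 436, 489 and 371 CPM. Both genes of neurons had tight groups without overlap and small log2 fold changes (-0.64 ± 0.190 and -0.69 ± 0.221). Mllt11 overlaps Cdc42se1 on the other strand. The same genes had -0.34 ± 0.197 and -0.20 ± 0.204 at 50 ng, with adjusted p of 0.835 and 0.848 there by edgeR.

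Levels were also summed over the members of each group. Of the 25 gene groups, 4 had a summed CPM that was higher in each GFAP-IL6 library than in any WT library, and none was lower throughout. Among single genes tested the shares were 1.47% higher and 1.34% lower throughout. At 50 ng there were 6 above and 1 below. The myeloid activation score was 808, 888, 1015 and 795 CPM in GFAP-IL6 and 482, 542, 359 and 377 CPM in WT, 877 ± 101 against 440 ± 86.9 (SD, n = 4 each). The complement score was 550, 580, 599 and 508 CPM against 290, 375, 247 and 225 CPM, 559 ± 39.5 against 284 ± 66.1, and C1qb alone gave 41.2% of it over the 8 libraries. Both scores thus lay apart by several times their spread, at ratios of 1.99 and 1.97, although only Ctss among single genes was called and Ctss is in neither. The log2 ratios were 0.99 and 0.98 at 0.5 ng and 1.07 and 1.08 at 50 ng. Both stayed apart under each scaling, in thinned libraries, without the member of highest level and without each library in turn. With C1qb left out, the complement score still held C1qc, which as a single gene also had no overlap. The complement score is therefore not separate from these genes and does not by itself show a change across the group. No p-value is given for these scores, since the groups were chosen with earlier results of these data known.

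The homeostatic microglia score was 661, 607, 802 and 697 CPM against 363, 475, 514 and 435 CPM, a ratio of 1.55. Its separation depended on how the members were combined, since the groups overlapped for the mean of log2(CPM + 1). The reactive astrocyte score was 415, 515, 426 and 429 CPM against 225, 290, 362 and 415 CPM. Its separation turned on 2 libraries at 415 CPM, and it overlapped when CPM were scaled by TMM, taken without mitochondrial genes, averaged on the log scale or thinned. Without WT replicate 3 the number of scores above WT was 9, and without GFAP-IL6 replicate 4 it was 8. The other single libraries left out gave 4 or 5. The cathepsin and lysosome score and the endothelial score also separated when CPM were scaled by TMM, taken without mitochondrial genes or summed without the member of highest level. In thinned libraries the IL6 receptor and JAK-STAT score lay above, and the interneuron and neuropeptide score below, all WT libraries. The interferon-stimulated score lay above them for the mean of log2(CPM + 1). As summed CPM of all libraries, interferon-stimulated genes (ratio 1.57), pericyte and smooth muscle genes (1.53), cathepsin and lysosome genes (1.39), IL6 receptor and JAK-STAT genes (1.25), antigen presentation genes (1.24), endothelial genes (1.24) and chemokine genes (1.17) had higher means in GFAP-IL6, with overlap.

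**Figure D5:**
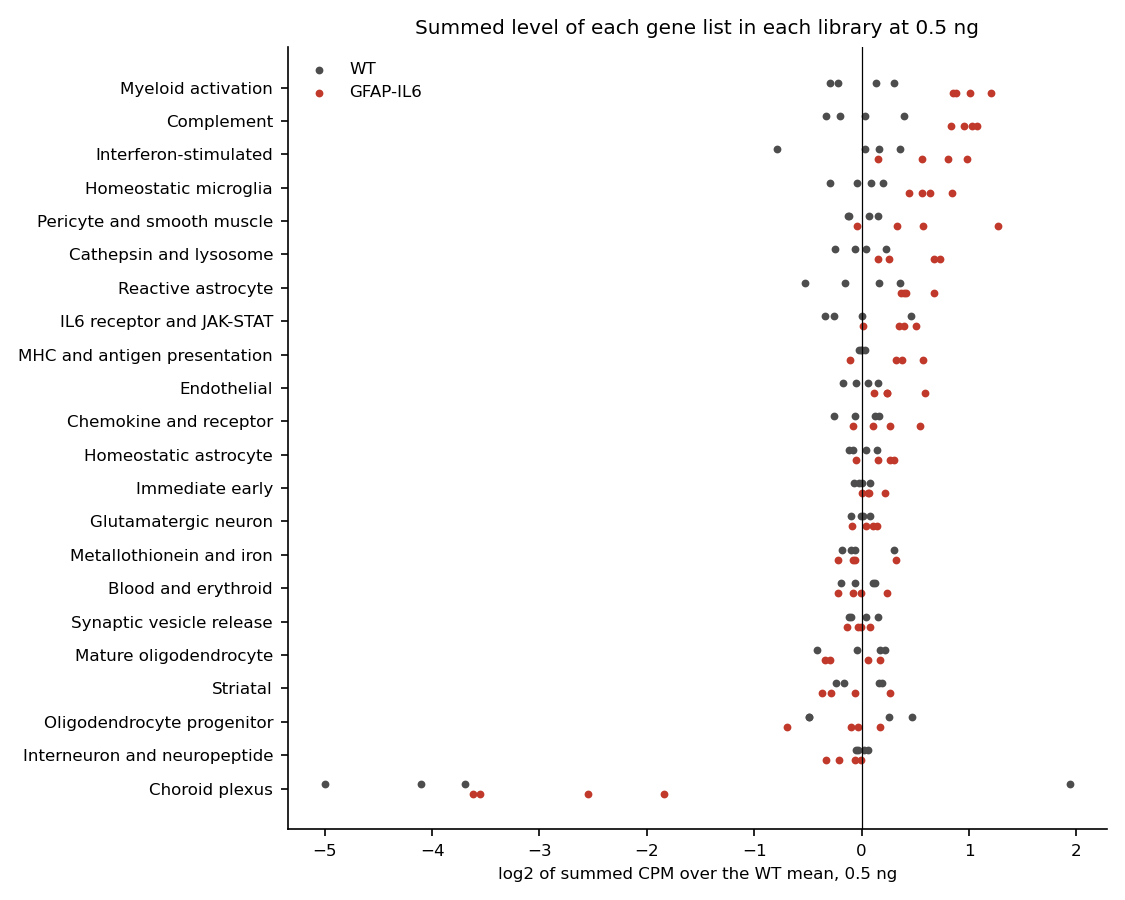
Each point is the summed CPM of a gene list in 1 library at 0.5 ng, as log2 of its ratio to the WT mean (x axis), for WT (grey) and GFAP-IL6 (red). Lists with a library at 0 are left out. Myeloid activation and complement stood fully apart at log2 ratios of 0.99 and 0.98, and the WT point at the right of the choroid plexus row is replicate 3.

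Scores of neurons, oligodendrocytes and the remaining groups overlapped between the genotypes. Ratios were 1.04 for glutamatergic neurons (4086 ± 292 against 3932 ± 197 CPM), 0.984 for synaptic vesicle release, 1.13 for homeostatic astrocytes, 0.944 for mature oligodendrocytes, 0.914 for oligodendrocyte progenitors, 1.06 for immediate early genes, 1.002 for metallothionein and iron genes, 0.994 for blood genes and 0.938 for striatal genes. Blood genes were at 480 to 660 CPM and striatal genes at 156 to 242 CPM over the 8 libraries, so that neither was near 0. None of the 16, 15, 13 and 6 tested genes of glutamatergic neurons, vesicle release, mature oligodendrocytes and their progenitors had p under 0.05. The interneuron and neuropeptide score was 3897 ± 398 against 4317 ± 156 CPM (ratio 0.903) with overlap, and it was lower without overlap at 50 ng. Pvalb, the calcium-binding protein of basket cells, named after its values were seen, was the only tested gene of that group with p under 0.05. It was at 215, 302, 195 and 199 CPM against 378, 249, 389 and 312 CPM (-0.58 ± 0.252, 95% interval -1.11 to -0.05).

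Markers of T cells and neutrophils were at 0 but for S100a9, where 0 counts allow up to 1.10 to 10.2 CPM per gene and library. Those of border macrophages were low and uneven between libraries. The 6 T cell genes had 0 counts in all 8 libraries, 4 of the 5 neutrophil genes likewise, with S100a9 at 10.4 CPM in GFAP-IL6 replicate 3, and the border macrophage score was 0 to 38.4 CPM in GFAP-IL6 and 0.380 to 19.1 CPM in WT. Ttr, transthyretin of the choroid plexus, was at 139, 193, 66.3 and 69.4 CPM in GFAP-IL6 and at 32.4, 62.9, 3110 and 25.5 CPM in WT. The level in WT replicate 3 was thus far above the other 7 libraries, as it was at 50 ng. The log2 fold change of -2.77 ± 1.03 rested on that library and was 1.49 without it. Ctss had a log2 fold change of 2.13 without it.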

How the data were processed

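RNA of frontal cortex was profiled by 3'Pool-seq. As stated in the study's methods, the authors demultiplexed reads with bcl2fastq, trimmed polyA stretches of at least 12 nucleotides, aligned to mm10 with STAR 2.4 and counted genes of GENCODE vM6 with featureCounts. The strand setting is not given in the sources used here, and the submitters' processing notes name hg19, whereas the gene identifiers are mouse. The deposited values are raw counts of reads per gene for 33000 genes, without molecular identifiers, so that PCR copies count as reads.

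Genes were filtered with filterByExpr, scaled by TMM and tested with edgeR 4.0.16 (quasi-likelihood, Benjamini-Hochberg adjustment) in R 4.3.3, on the 8 libraries at 0.5 ng alone, following the study's DEG thresholds (adjusted p under 0.05, absolute log2 fold change above 1). The difference between inputs was an interaction term in 16 libraries. Levels are CPM of the total count. Alternatives used DESeq2 1.42.0, limma 3.58.1 (voom), other filters and scalings, thinning and left-out libraries. Intervals of pooled count ratios are exact and cover counting error only, and a fold against 0 used a floor of 3 counts over the group. Such intervals and folds leave out the spread between libraries, so that they are not bounds on the genotype difference. Scripts were tested on simulated data. Overlapping genes were read from GENCODE vM21 (GRCm38).

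The members, gene lists and tests were chosen with earlier results of these data known. Genes were named by rule: DEGs at 0.5 ng, the 10 higher and 5 lower genes of smallest p without overlap, DEGs at 50 ng, list members without overlap, the 2 members of highest level of each list, and Il6, Gfap, C4b, Scgb3a1 and Ccl12. Other names are given as chosen after their values were seen, or as untested list members. One gene that the rule names is not reported here.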

Additional observations from a re-analysis of the deposited data

Results flagged for a closer look

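In groups of 4 libraries at 0.5 ng, 1 library stood apart from the other 3 by Dixon's ratio (gap over range, critical value 0.829) in 15 of 126 groups tested. Chance flags about 5% of groups, but in 6 of the 15 the other libraries were all at 0 and the ratio was 1 by construction, so that the count is not to be read against that share. In WT the ratio was 1 for Cep85l, Serpinb8, Chd1 and Brat1, whose WT counts were all in replicate 4 (1.14 CPM for Cep85l and 0.380 CPM for the others), and 1 for C4b, counted in replicate 3 alone (3.09 CPM). It was 0.971 for Ifitm3 (67.4 CPM in WT replicate 1), 0.963 for Pycard (22.4 CPM in WT replicate 3), 0.988 for Ttr (3110 CPM in WT replicate 3) and 0.988 for the summed choroid plexus genes in the same library (3123 CPM). In GFAP-IL6 it was 0.906 for Gfap (9.61 CPM in replicate 1), 0.834 for Itgam (9.93 CPM in replicate 3), 0.869 for C1qb (324 CPM in replicate 3) and 0.879 for Psmb8 (40.0 CPM in replicate 4). It was 0.858 for the summed reactive astrocyte genes (515 CPM in replicate 2) and 1 for the summed neutrophil genes (10.4 CPM in replicate 3, all S100a9).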

How the results depend on the processing

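The count of 1 DEG at 0.5 ng was 21 with DESeq2, 4 without the filter, 616 in one fit of all 32 libraries, 0 in thinned libraries (122 genes at an unadjusted p under 0.05) and 0 without both replicate 2 libraries (282). It ranged from 1 to 2 when each library was left out, with Pycard added without WT replicate 3 and Plaa without GFAP-IL6 replicate 4. Ctss was called in 16 of 18 alternatives, at log2 fold changes of 1.82 to 2.35. The interaction count of 0 was 165 with DESeq2, 1 without the filter, 24 in the fit of all 32 libraries and 0 to 4 with each library left out. DEGs at 50 ng numbered 59 without the 50 ng GFAP-IL6 replicate 4 library, an alternative chosen after seeing the data. The 4 separated list scores were 4 to 9 with each library left out (9 without WT replicate 3, 8 without GFAP-IL6 replicate 4), 5 with TMM scaling, without mitochondrial genes or without the top member, 4 in thinned libraries and 3 for the mean of log2(CPM + 1). Replicate numbers were not taken as pairs, since the labels state no pairing. Deviations of libraries that shared a number correlated across genotypes at -0.012 to 0.029. Across inputs they correlated at 0.0245 to 0.132, not every pair above 0.1. The own number came first in 4 of 4 WT and 2 of 4 GFAP-IL6 libraries, a hint from the data and not the design. Low correlations cannot show that samples differed, since the spread at 0.5 ng was wide. Mitochondrial shares in WT replicates 1 to 4 were 15.3, 18.5, 11.0 and 18.1% at 0.5 ng. At 50 ng they were 14.9, 18.3, 12.4 and 16.6%, in the same order. In GFAP-IL6 they were 16.2, 15.6, 12.1 and 17.1% against 15.3, 15.9, 12.7 and 18.9%. The replicate block gave 1 DEG and 0 interaction genes. With each library left out Ctsh ranged from -0.60 to 0.54 and Ttr from -3.18 to 1.49. Ctsh reversed from -0.20 to 1.15 with the replicate block, 1.43 with voom, 0.18 without WT replicate 1, 0.54 without WT replicate 4 and 0.0035 without GFAP-IL6 replicate 1, and Ttr from -2.77 to 0.53 with the block and 1.49 without WT replicate 3. The cause of these changes was not tested. Of 797 values of 46 named genes under the alternatives, 753 kept direction and side of the threshold, 35 passed it newly, 2 lost it and 7 reversed. Depth limits the shallowest library to levels above 10.2 CPM.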
